A study of Mus musculus with 20 samples.

Results

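The desmosomal adhesion genes of mouse skin were followed in whole ear tissue after injection of a cytokine or of buffer. They were named as a set of 10 genes: the desmogleins Dsg1a, Dsg1b, Dsg2, Dsg3 and Dsg4, the desmocollins Dsc1, Dsc2 and Dsc3, corneodesmosin (Cdsn) and desmoplakin (Dsp). Of these, 9 were measured among the 16669 genes of the deposited table, and Dsg4 was not analysed here. All 9 passed the filter on low values, a log2 CPM of 0 or more in 5 or more of the 20 libraries, which 16461 genes passed. CPM is a gene's counts scaled to a nominal library total, and a log2 CPM difference of 1 is a fold of 2 on that scale. Less a small added offset, the CPM of a library summed to between 919096 (PBS library 3) and 1110518 (IL-13 library 3). The values are therefore not exact shares of the reads. RNA-seq libraries were made from total RNA of mouse ear pinnae whose right ear had received an injection into the dermis. The injected fluid was 10 µl of PBS, the buffer control, or the same volume holding 0.1 µg/µl of a cytokine, which was IL-4, IL-13 or IL-31. IL-4 and IL-13 are the type 2 cytokines of allergic skin inflammation and share a receptor chain, and IL-31 is a cytokine of T cells known for causing itch. Each of the 4 groups had 5 libraries, numbered 1 to 5 in their titles. The sources used here give no strain, age or time of harvest. Nor do they say that each library came from its own animal, so p-values measure only the spread between these samples, which may be technical.

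Desmosomes are the spot junctions that tie neighbouring keratinocytes together. Desmogleins and desmocollins are cadherins that reach across the gap between the cells and bind one another, and inside the cell plakoglobin and plakophilins couple their tails to desmoplakin, which holds the keratin filaments. In epidermis the forms change with depth: Dsg3 and Dsc3 are richest in the lower layers, while desmoglein 1 and Dsc1 are richest in the upper layers. Cdsn is added to the junction in the granular layer, and the resulting corneodesmosome holds the cornified layer together until proteases cut it and cells are shed.

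Cdsn (GRCm38) is at chr17:35552128-35557180 and Dsp at chr13:38151294-38198577, both protein-coding and on the plus strand. The 250 bases before the start of Cdsn and Dsp are shown because the promoter table used matched only these 2 of the 10 genes. These bases come from RefSeq (GRCm38.p6, plus strand). The Cdsn window is chr17:35551878-35552127, with the CACCC match in capitals, and the Dsp window is chr13:38151044-38151293, with the GGGCGG matches on either strand in capitals.
Cdsn: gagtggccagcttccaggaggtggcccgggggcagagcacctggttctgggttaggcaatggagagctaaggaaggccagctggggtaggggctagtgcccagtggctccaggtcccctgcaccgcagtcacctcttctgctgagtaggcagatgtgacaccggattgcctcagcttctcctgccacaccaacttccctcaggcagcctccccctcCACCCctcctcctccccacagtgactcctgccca
Dsp: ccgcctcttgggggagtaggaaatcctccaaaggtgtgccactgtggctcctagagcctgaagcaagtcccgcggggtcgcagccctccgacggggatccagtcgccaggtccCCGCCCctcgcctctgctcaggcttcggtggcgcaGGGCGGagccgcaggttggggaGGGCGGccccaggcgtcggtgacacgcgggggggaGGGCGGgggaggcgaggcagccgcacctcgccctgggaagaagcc
Both strands were searched for TATAAA (the TATA box), GGGCGG (the GC box of Sp factors), CACCC (read by Klf factors) and TGANTCA (AP-1), motifs that do not overlap one another in these windows. The Dsp window is 72.4% G and C and holds 4 GGGCGG matches, a motif found in 32.7% of 32851 RefSeq promoters cut to the same 250 bases. The Cdsn window is 64.0% G and C and holds 1 CACCC match, a motif found in 52.0% of them. Neither window held TATAAA (12.4% of promoters) or TGANTCA (6.75%). The matches are descriptions of these letters and not of binding.

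The 8 cadherin genes named by the rule lie in a cluster on chromosome 18 (GRCm38). It runs from 19960930, the end of Dsc3 on the minus strand, to 20604521, the end of Dsg2 on the plus strand. The desmocollins are on the minus strand and the desmogleins on the plus strand, and all are protein-coding.

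The effective library sizes, by which counts were scaled, were estimated from the steps between low values and are not exact totals of reads. They ran from 6.11 to 23.73 M reads (M, mega) with a median of 12.97 M, and 3 reads were worth 0.126 to 0.491 CPM. PBS libraries 1, 2 and 3 stood apart from the others: each lay below all 15 cytokine libraries in 8 of the 9 genes, all but Dsc2. Over all genes tested, these libraries lay below all 15 in 22.28, 22.34 and 21.05%. PBS library 4 lay below them only in Dsg3, and PBS library 5 only in Dsg2 (7.79 and 17.4% of all genes). Every comparison with PBS shares these 5 control libraries. The fold changes, balances and list counts are therefore also given without PBS libraries 1, 2 and 3, an alternative chosen after the values were seen. Those libraries were picked for their low values in these genes, so leaving them out lowers the rises by construction. A list of 12 suprabasal and cornified keratinocyte genes moved in the same libraries. Its mean log2 CPM, centred on each gene's mean over the 20 libraries, was -1.36, -1.97 and -2.40 in PBS libraries 1 to 3, 0.07 and 0.26 in PBS libraries 4 and 5, and -0.45 to 1.31 in the cytokine libraries. In bulk tissue, fewer cells of a type and less RNA per cell cannot be told apart.

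Most of the desmosomal genes were higher after each cytokine than after PBS, and none was lower. After IL-4, 5 of the 9 rose (Dsg1a, Dsg2, Dsc3, Cdsn and Dsp), where 8.22% of all genes tested rose and 9.63% fell. After IL-13, 7 of the 9 rose, the same 5 with Dsg1b and Dsc1, against 9.94% of all genes that rose and 9.8% that fell. After IL-31, 6 of the 9 rose, the 5 with Dsc1, against 5.18% of all genes that rose and 1.2% that fell. Groups without overlap were found for 0, 0 and 2 of the 9 genes (2.64, 2.52 and 2.93% of all genes in that direction). The call was an adjusted p under 0.05 in limma (linear models over all 20 libraries, Benjamini-Hochberg over 16461 genes), here and below. Over all genes the calls split into 1353 higher and 1585 lower for IL-4 and 1637 and 1613 for IL-13, and with library medians made equal into 2412 and 1298, and 2651 and 1297. After quantile normalization the splits were 1758 and 1199, and 1906 and 1197, and the counts among the 9 genes were 5 and 7 under either scaling. The median log2 change of the 9 genes was 0.87, 1.03 and 1.08 in the IL-4, IL-13 and IL-31 comparisons, and that of all genes -0.02, -0.03 and -0.04. Without PBS libraries 1 to 3, limma called 0 of the 9 genes in each comparison and 1200, 385 and 0 of all genes. The medians of the 9 were then -0.04, 0.22 and 0.17, and 1 of them, Dsg2, had an unadjusted p under 0.05 in each. Over all genes, 4102, 3172 and 1227 had one. When only the 10 libraries of a comparison were fitted, limma also called 0 of the 9 genes each time. Of all genes it then called 1269, 1134 and 0. Of the 9, 6, 7 and 7 had an unadjusted p under 0.05 in that fit, and of all genes 4129, 4286 and 3149. The adjusted p of the genes named above was then 0.0524 to 0.144 for IL-4, 0.0533 to 0.123 for IL-13 and 0.135 to 0.164 for IL-31, with the fold changes as before.

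**Figure D1:**
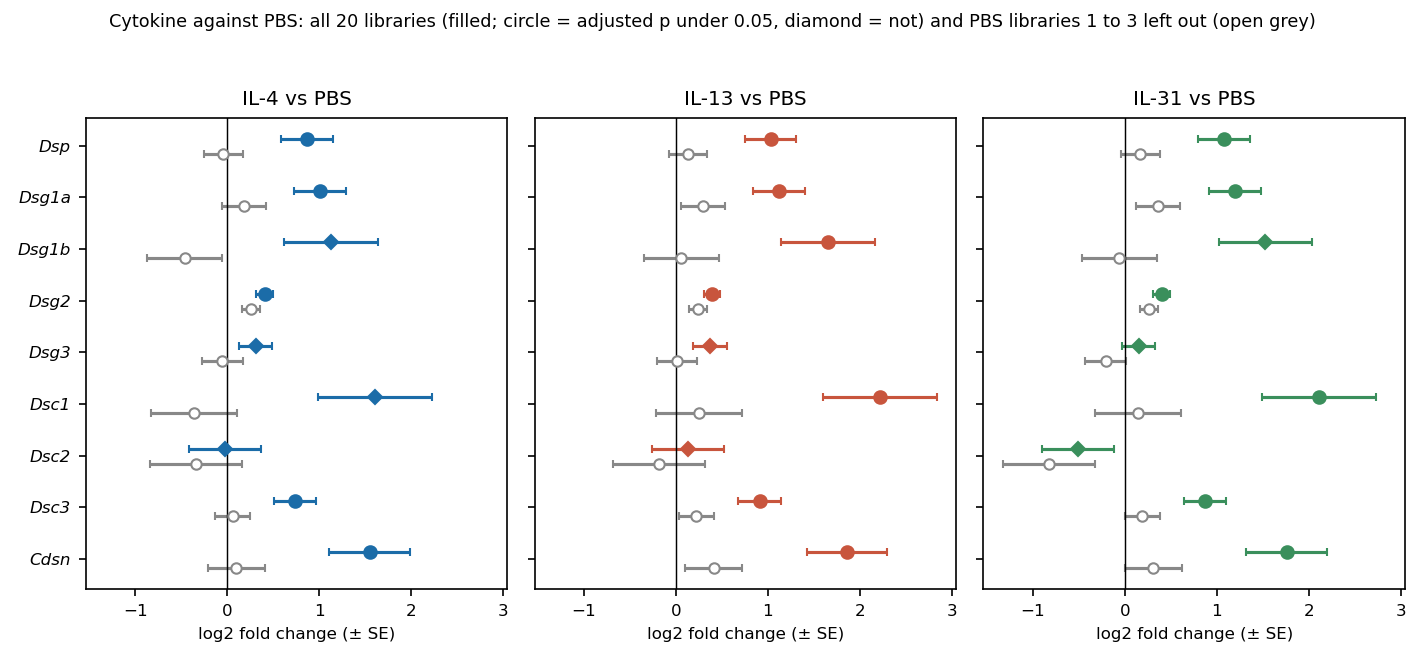
Log2 fold change of each gene (x axis, ± SE) against PBS in 3 panels, IL-4, IL-13 and then IL-31, with all 20 libraries (filled circles, adjusted p under 0.05 in limma, and filled diamonds, not) and with PBS libraries 1 to 3 left out (open grey circles). Dsc1 and Cdsn have the largest filled values, up to 2.22 for Dsc1 after IL-13, and the open circles of all 9 genes lie between -0.83 and 0.41.

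Dsp, which encodes the plaque protein that anchors keratin filaments, was the most abundant of the genes and was higher after each cytokine. Its log2 CPM in PBS libraries 1 to 5 was 10.28, 10.28, 9.97, 11.63 and 11.74. It was 11.14, 11.67, 11.75, 11.87 and 11.81 after IL-4, 11.94, 11.23, 12.11, 11.91 and 11.87 after IL-13, and 11.84, 11.73, 11.89, 11.92 and 11.91 after IL-31. PBS libraries 1 to 3 lay below every other library, PBS libraries 4 and 5 lay within the cytokine values, and the groups overlapped in every comparison. The IL-31 libraries were the tightest group (SD 0.08, against 0.84 in PBS, n = 5 each). Dsp rose by 0.87 ± 0.28 (log2, SE) after IL-4, 1.03 ± 0.28 after IL-13 and 1.08 ± 0.28 after IL-31, a fold of 1.82, 2.04 and 2.11 (limma, adjusted p = 0.0399, 0.016 and 0.0311). With PBS libraries 1 to 3 left out the differences were -0.04, 0.13 and 0.17. The IL-4 call was also lost without PBS library 1, 2 or 3 or IL-4 library 2, 3, 4 or 5 (adjusted p 0.0692 to 0.109), the IL-13 call without PBS library 2 (0.0527), and the IL-31 call without PBS library 1, 2 or 3 or IL-31 library 1, 3, 4 or 5 (0.0564 to 0.0949). An antisense gene, Gm10129, overlaps 499 bases or 5.17% of the Dsp exons, and without a stated use of strand its reads cannot be told from those of Dsp.

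**Figure D2:**
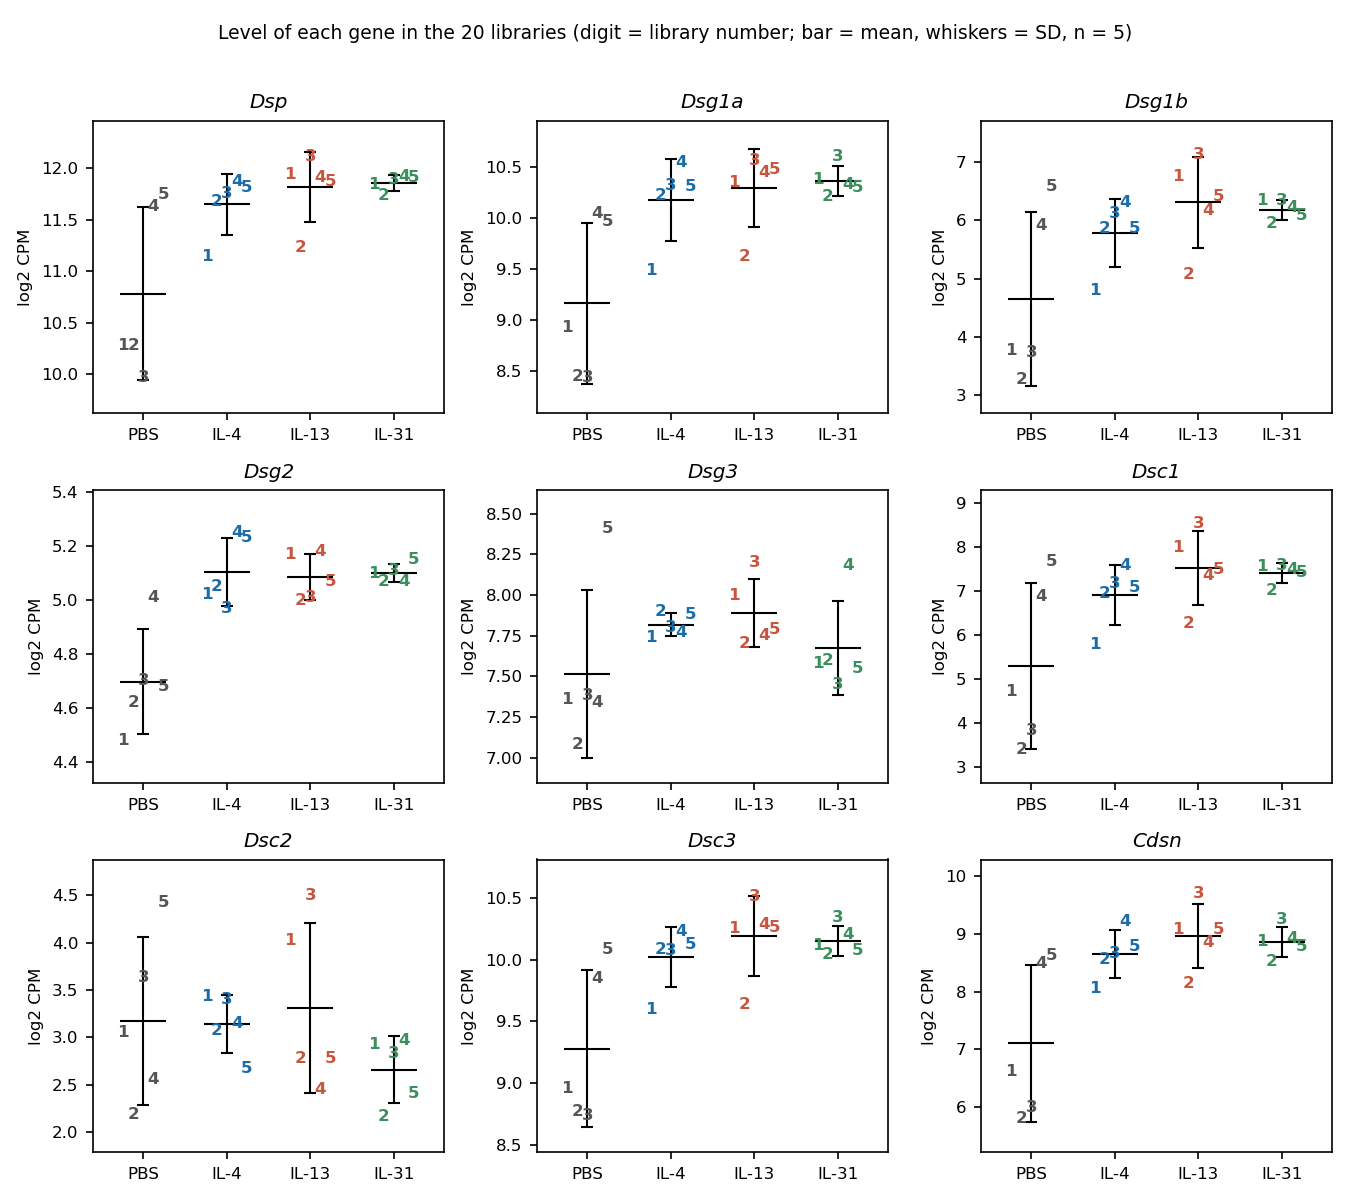
Log2 CPM (y axis) of the 9 genes, a panel each, in the PBS, IL-4, IL-13 and IL-31 libraries (x axis). Digits are library numbers, bars are means and whiskers SD (n = 5). In Dsp, Dsg1a, Dsg1b, Dsc1, Dsc3 and Cdsn the digits 1, 2 and 3 of PBS sit below all others, and in Dsc2 they do not.

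Dsg1a encodes the main mouse form of desmoglein 1, the cadherin of the upper epidermis that is the target of autoantibodies in pemphigus foliaceus. Its log2 CPM was 8.93, 8.45, 8.44, 10.04 and 9.96 in the PBS libraries. After IL-4 it was 9.49, 10.22, 10.32, 10.54 and 10.31, after IL-13 10.35, 9.62, 10.56, 10.44 and 10.47, and after IL-31 10.38, 10.21, 10.60, 10.33 and 10.30. All 5 IL-31 libraries lay above all 5 PBS libraries, a separation that 2.93% of all genes showed in that direction, while IL-4 library 1 and IL-13 library 2 fell inside the PBS range. Dsg1a rose by 1.01 ± 0.28, 1.12 ± 0.28 and 1.20 ± 0.28 after IL-4, IL-13 and IL-31 (log2 change, SE), with adjusted p values in limma of 0.0185, 0.00991 and 0.0231. The same differences without PBS libraries 1 to 3 were 0.18, 0.29 and 0.36. The IL-13 call held with any 1 library left out (highest adjusted p 0.0359). The IL-4 call was lost without PBS library 2 (0.06) or 3 (0.0513) or IL-4 library 4 (0.051), and the IL-31 call without PBS library 1, 2 or 3 or IL-31 library 3 or 5 (0.052 to 0.0783).

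Dsg1b, a neighbouring copy of desmoglein 1, was expressed at a lower level and spread further between the PBS libraries. It read 3.77, 3.28, 3.73, 5.91 and 6.58 log2 CPM after PBS, and PBS library 5 lay above all IL-4 and IL-31 libraries and above 3 of the 5 IL-13 libraries. After IL-13 it read 6.75, 5.07, 7.12, 6.17 and 6.41, a rise of 1.65 ± 0.51 (log2, SE; limma, adjusted p = 0.0277). After IL-4 the libraries lay between 4.80 and 6.30 and after IL-31 between 5.94 and 6.34, and neither difference passed the test (1.13 ± 0.51 with adjusted p = 0.131, and 1.53 ± 0.51 with adjusted p = 0.0748, limma). Without PBS libraries 1 to 3 the differences from PBS were -0.46 after IL-4, 0.06 after IL-13 and -0.06 after IL-31. The IL-13 call was lost without PBS library 1, 2 or 3 or IL-13 library 1, 3 or 5 (adjusted p 0.0557 to 0.0909), whereas without PBS library 4 or 5 the IL-4 difference passed (0.0499 and 0.014) and so did the IL-31 difference (0.0243 and 0.00559). The levels of Dsg1a and Dsg1b are uncertain, because the authors' counting could split reads between them and Dsg1c: of all runs of 50 bases in the transcripts of Dsg1b, 45.5% also occur in Dsg1a and 25.0% in Dsg1c. For Dsg1a the shares were 31.6% with Dsg1b and 18.8% with Dsg1c, and none of the other cadherin pairs in the cluster shared such a run.

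Dsc1, the desmocollin of the upper epidermis, had the largest log2 differences from PBS of the 9 genes and the widest range over the 20 libraries. In PBS libraries 1 to 5 it read 4.72, 3.40, 3.83, 6.87 and 7.67 log2 CPM, an SD of 1.88. It read 5.78, 6.94, 7.17, 7.57 and 7.09 after IL-4, 7.99, 6.25, 8.53, 7.35 and 7.48 after IL-13, and 7.56, 7.0, 7.57, 7.49 and 7.43 after IL-31. PBS libraries 1 to 3 were below every cytokine library, PBS library 5 was above all IL-4 and IL-31 libraries, and all 3 comparisons overlapped. Dsc1 rose after IL-13 by 2.22 ± 0.62 and after IL-31 by 2.11 ± 0.62 (log2 change, SE), a fold of 4.67 and 4.33 (limma, adjusted p = 0.0173 and 0.0473). After IL-4 the difference was 1.61 ± 0.62 and did not pass (limma, adjusted p = 0.0788). The difference without PBS libraries 1 to 3 was -0.36 for IL-4, 0.25 for IL-13 and 0.14 for IL-31. In the IL-13 comparison the call ended without PBS library 2 (adjusted p 0.0594) or 3 (0.0506) or IL-13 library 3 (0.055), and the IL-31 call without PBS library 1, 2 or 3 or any IL-31 library (0.0622 to 0.141). The IL-4 difference passed without PBS library 4 (0.0268) or 5 (0.00784) or IL-4 library 1 (0.0495).

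Cdsn, the glycoprotein that marks corneodesmosomes, lay closest to Dsg1b in its pattern over the libraries and rose after each cytokine. Its log2 CPM after PBS was 6.61, 5.81, 5.99, 8.48 and 8.62. After IL-4 it was 8.05, 8.55, 8.66, 9.21 and 8.78, after IL-13 9.07, 8.14, 9.69, 8.84 and 9.07, and after IL-31 8.86, 8.52, 9.24, 8.91 and 8.77. The 3 low PBS libraries were below every cytokine library, and PBS libraries 4 and 5 lay among the lower cytokine values, so that the groups overlapped. The rise was 1.55 ± 0.44 after IL-4, 1.86 ± 0.44 after IL-13 and 1.76 ± 0.44 after IL-31 (log2, SE), or 2.92-, 3.63- and 3.38-fold (limma, adjusted p = 0.0209, 0.00739 and 0.0273). Leaving out PBS libraries 1 to 3 gave 0.10, 0.41 and 0.31. For IL-13 the call held with any 1 library left out (highest adjusted p 0.027). For IL-4 it was lost without PBS library 2 (0.0678) or 3 (0.0585) or IL-4 library 4 (0.0568), and for IL-31 without PBS library 1, 2 or 3 or IL-31 library 1, 3, 4 or 5 (0.0518 to 0.0875).

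Dsc3, the desmocollin richest in the lower layers, rose by less than Dsc1 but after all 3 cytokines. It ran from 8.74 to 10.08 log2 CPM after PBS (8.96, 8.77, 8.74, 9.85 and 10.08), from 9.60 to 10.23 after IL-4, from 9.64 to 10.51 after IL-13 and from 10.04 to 10.34 after IL-31. PBS library 5 overlapped the values of each cytokine group. The log2 rise was 0.74 ± 0.23, 0.91 ± 0.23 and 0.87 ± 0.23 (SE) after IL-4, IL-13 and IL-31 (limma, adjusted p = 0.0281, 0.00921 and 0.0297), and 0.06, 0.22 and 0.19 without PBS libraries 1 to 3. The IL-13 call held with any 1 library left out (highest adjusted p 0.0336). The IL-4 call was lost without PBS library 1, 2 or 3 or IL-4 library 2, 3, 4 or 5 (0.0525 to 0.0852), and the IL-31 call without PBS library 1, 2 or 3 or IL-31 library 1, 3, 4 or 5 (0.0531 to 0.0914).

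Dsg2, the widely expressed desmoglein that is also found in simple epithelia and heart, rose by the least of the genes that passed in all 3 comparisons, and with the smallest error. Its log2 CPM was 4.48, 4.62, 4.70, 5.01 and 4.68 after PBS, with library 4 as the highest. It was 5.02, 5.05, 4.97, 5.25 and 5.23 after IL-4, 5.17, 5.00, 5.01, 5.18 and 5.07 after IL-13, and 5.10, 5.07, 5.11, 5.07 and 5.15 after IL-31. The IL-31 libraries lay wholly above the PBS libraries, and in the other comparisons PBS library 4 overlapped 1 cytokine library. Dsg2 rose by 0.41 ± 0.09 after IL-4, 0.39 ± 0.09 after IL-13 and 0.40 ± 0.09 after IL-31 (log2, SE), a fold of 1.33, 1.31 and 1.32 (limma, adjusted p = 0.0045, 0.00528 and 0.0198). It was the gene least moved by leaving out PBS libraries 1 to 3, with 0.26, 0.24 and 0.26 (unadjusted p = 0.0213, 0.0291 and 0.023 in limma, adjusted p = 0.127, 0.198 and 0.645). With any 1 library left out the IL-4 and IL-13 calls held (highest adjusted p 0.0154 and 0.0181), while the IL-31 call was lost without PBS library 1, 2 or 3 or IL-31 library 3 or 5 (0.0515 to 0.0679). A minus-strand gene, Gm16090, overlaps 330 bases or 3.99% of the Dsg2 exons, with the same limit as for Dsp.

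Dsg3, the desmoglein of the lower layers and the target of autoantibodies in pemphigus vulgaris, passed in none of the 3 comparisons. It read 7.36, 7.08, 7.38, 7.34 and 8.41 log2 CPM after PBS, 7.74, 7.90, 7.80, 7.77 and 7.88 after IL-4, 8.0, 7.70, 8.20, 7.75 and 7.79 after IL-13, and 7.58, 7.60, 7.45, 8.18 and 7.55 after IL-31. PBS libraries 1 to 4 lay below every cytokine library and PBS library 5 lay above all of them. The differences were 0.31 ± 0.18, 0.37 ± 0.18 and 0.15 ± 0.18 (log2 change, SE; limma, adjusted p = 0.273, 0.164 and 0.619), with 95% confidence intervals of -0.08 to 0.69, -0.01 to 0.75 and -0.23 to 0.54. Without PBS library 5 alone all 3 passed (adjusted p 0.00697, 0.00277 and 0.0439), and without PBS libraries 1 to 3 they were -0.05, 0.01 and -0.21.

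Dsc2, the widely expressed desmocollin, was the least abundant of the genes and did not follow the others. Its log2 CPM was 3.05, 2.18, 3.63, 2.55 and 4.42 after PBS and 4.02, 2.77, 4.5, 2.45 and 2.78 after IL-13, with high values in PBS library 5 and in IL-13 libraries 1 and 3. It ran from 2.67 to 3.43 after IL-4 and from 2.16 to 2.97 after IL-31. No comparison passed: the differences were -0.02 ± 0.39, 0.13 ± 0.39 and -0.51 ± 0.39 after IL-4, after IL-13 and after IL-31 (log2 change, SE; limma, adjusted p = 0.974, 0.842 and 0.429). Without PBS libraries 1 to 3 they were -0.34, -0.18 and -0.83. The IL-4 difference changed sign with the scaling between libraries (0.20 after quantile normalization and 0.06 with library medians made equal). The mean centred level of 8 neutrophil genes was 2.14, -1.05, 3.14, -1.22 and 2.88 in the PBS libraries and 2.72, -1.73, 1.23, -1.38 and -1.58 in the IL-13 libraries. PBS libraries 1, 3 and 5 and IL-13 libraries 1 and 3 were the highest of their groups in both Dsc2 and the neutrophil level, though not in the same order within them, whereas after IL-4 the neutrophil level was highest in library 4 (1.46), where Dsc2 read 3.14, below libraries 1 and 3. After IL-31, libraries 1, 3 and 4 were the highest in both. Their Dsc2 was 2.92, 2.83 and 2.97 and their neutrophil level 0.30, 2.10 and 1.10. The part of these cells in the Dsc2 values was not tested.

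Spread within a group was itself uneven across the set. The median SD of the 9 genes was 0.84 in PBS against 0.33 for all genes, 0.31 against 0.21 in IL-4, 0.38 against 0.23 in IL-13, and 0.17 against 0.19 in IL-31. The widest gene was Dsc1 in PBS and IL-4 and Dsc2 in IL-13 and IL-31. Over all 20 libraries the range was 5.13 log2 units for Dsc1, 3.88 for Cdsn, 3.84 for Dsg1b and 0.77 for Dsg2.

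**Figure D3:**
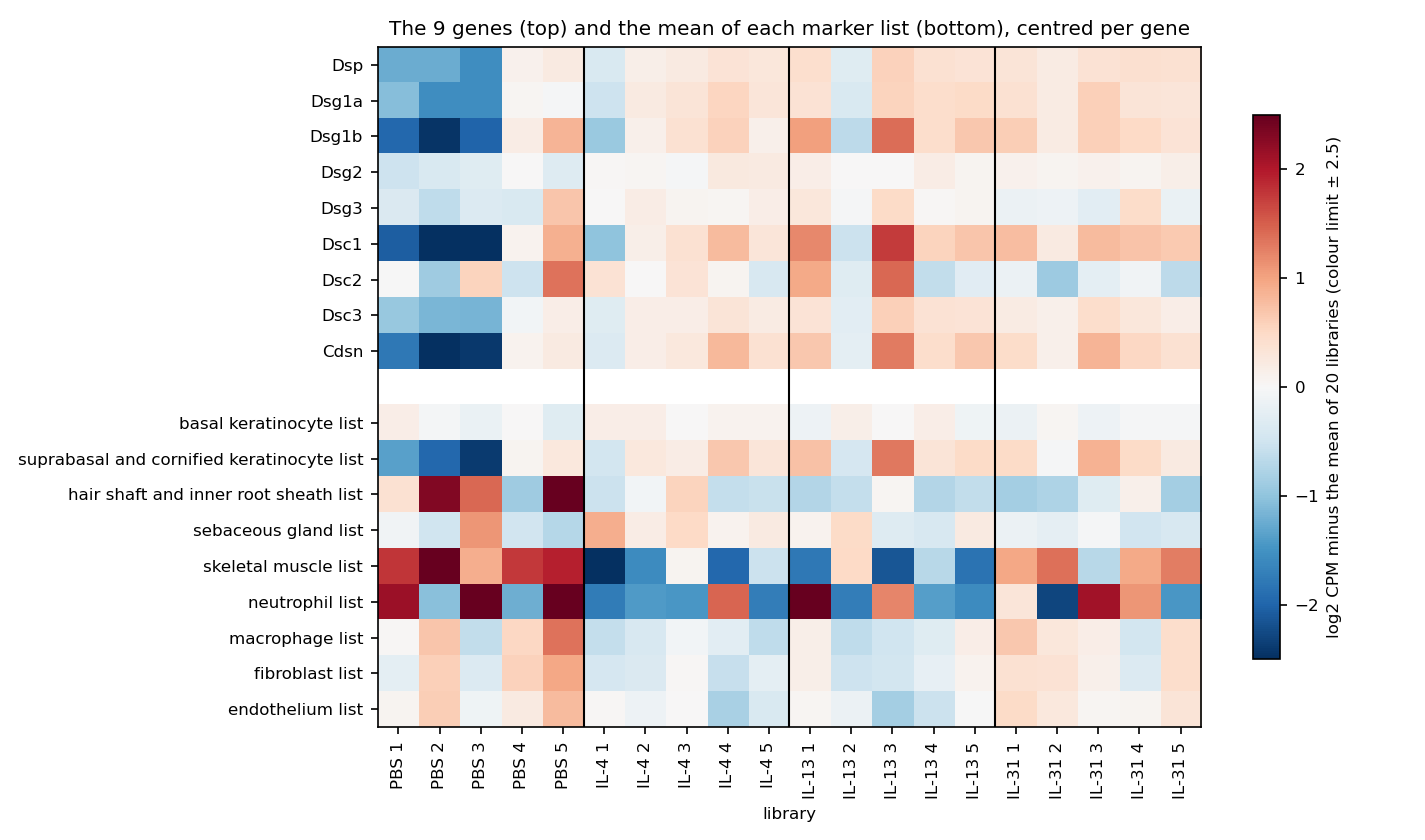
Log2 CPM minus each gene's mean over the 20 libraries (colour, limits ± 2.5) for the 9 genes in the upper rows and the mean of each marker list in the lower rows, with libraries in columns by group. PBS libraries 1 to 3 are blue in every gene but Dsc2 and in the suprabasal and cornified list, and PBS libraries as a group are red in the skeletal muscle list.

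Divided by exon length, the levels can be compared between genes. On the scale of log2 CPM per kb, Dsp had a mean of 7.51 in PBS, followed by Dsc3 (6.85), Dsg1a (6.66), Cdsn (5.68), Dsg3 (4.71), Dsc1 (2.95), Dsg1b (2.65), Dsg2 (1.64) and Dsc2 (0.74). In PBS the mean ± SD ranges of all neighbours in that order overlapped. After IL-31 the order was Dsp (8.59), Dsg1a (7.86), Dsc3 (7.72), Cdsn (7.44), Dsc1 (5.07), Dsg3 (4.87), Dsg1b (4.19), Dsg2 (2.05) and Dsc2 (0.22). There the ranges overlapped only between Dsg1a and Dsc3, Dsc3 and Cdsn, and Dsc1 and Dsg3. After IL-13 the means stood in the same order as after IL-31, with Dsc1 at 5.18 and Dsg3 at 5.08. After IL-4 Dsg3 (5.02) stood above Dsc1 (4.57).

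The share of each form in its family was computed per kb from the linear values. Dsg1a made up 72.3 ± 5.58% (SD, n = 5) of the desmogleins measured (Dsg1a, Dsg1b, Dsg1c, Dsg2 and Dsg3) in PBS, 79.4 ± 2.69% after IL-4, 78.0 ± 3.14% after IL-13 and 81.3 ± 2.43% after IL-31. Dsg3 made up 19.6 ± 5.88% in PBS, 12.9 ± 3.15% after IL-4, 12.2 ± 2.49% after IL-13 and 10.4 ± 2.39% after IL-31. In PBS libraries 1 to 5 the Dsg3 share was 20.4, 22.4, 26.0, 10.2 and 19.3%, so library 4 stood with the cytokine libraries and library 5 with the other controls. Among the desmocollins, Dsc3 made up 90.6 ± 5.88% in PBS and Dsc1 7.87 ± 6.06%. Dsc1 made up 11.2 ± 2.73% after IL-4, 14.8 ± 4.71% after IL-13 and 13.8 ± 1.48% after IL-31, while PBS library 5 alone was at 16.5%. These shares were not tested, since the balances that follow hold the same genes.

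**Figure D4:**
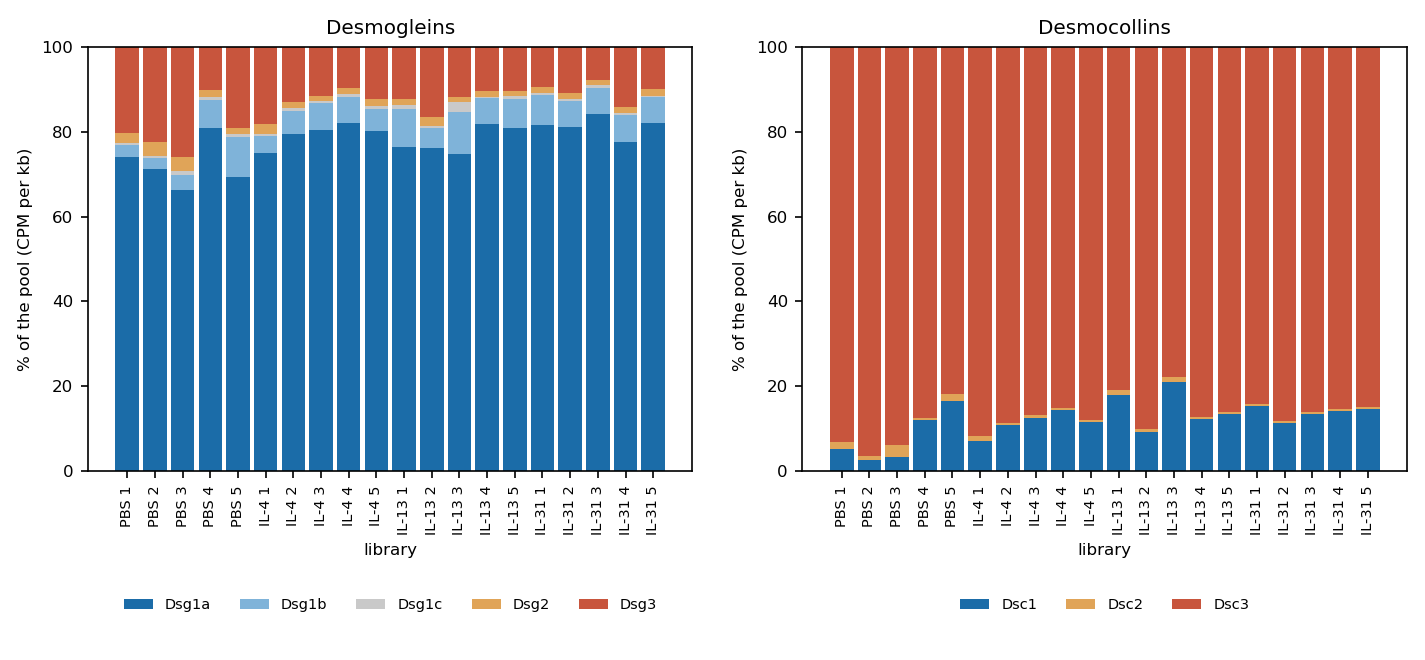
Stacked shares (% of CPM per kb, y axis) of the desmogleins measured and of the desmocollins in each of the 20 libraries (x axis). Dsg1a and Dsc3 fill most of their families in every library, and the Dsg3 share runs from 10.2 to 26.0% in the PBS libraries.

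Balances of upper-layer to lower-layer or shared components were taken within each library, where gene length and library size cannot move them. The log2 ratio of Dsg1a plus Dsg1b to Dsg3 was 1.60, 1.41, 1.11, 2.78 and 1.68 in PBS and 2.89, 2.69, 3.22, 2.23 and 2.82 after IL-31. PBS library 4 fell among the IL-31 values and the other 4 PBS libraries lay below all of them. The differences from PBS were 0.71 after IL-4, 0.78 after IL-13 and 1.06 after IL-31 (exact permutation test, two-sided, p = 0.0794, 0.0556 and 0.0238, and 0.102, 0.1 and 0.0714 after Benjamini-Hochberg adjustment over the 9 balance tests). For Dsc1 to Dsc3 the PBS libraries read -4.24, -5.37, -4.91, -2.98 and -2.41 and all cytokine libraries lay between -3.82 and -1.99. The differences of 0.87, 1.31 and 1.24 had p values of 0.206, 0.0714 and 0.103 in the exact permutation test (adjusted 0.206, 0.102 and 0.116).

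The balance of Cdsn to Dsp, a late component against the linker of all layers, was -3.67, -4.47, -3.98, -3.14 and -3.12 in PBS. It was -3.09, -3.12, -3.09, -2.66 and -3.03 after IL-4, -2.87, -3.09, -2.42, -3.07 and -2.80 after IL-13, and -2.98, -3.21, -2.65, -3.02 and -3.14 after IL-31. PBS libraries 1 to 3 were below all cytokine libraries, and all 5 IL-13 libraries were above all PBS libraries. The differences were 0.68, 0.83 and 0.68 (exact permutation test, p = 0.0159, 0.0079 and 0.0397, where 0.0079 is the smallest p that 5 against 5 allows). After adjustment over the 9 tests these were 0.0714, 0.0714 and 0.0893, so no balance passed 0.05. Leaving out PBS library 4 brought the Cdsn to Dsp and the Dsg1 to Dsg3 balances to adjusted p of 0.0286 to 0.0357, and leaving out PBS library 5 brought Cdsn to Dsp to 0.0286 in all 3 comparisons and Dsc1 to Dsc3 to 0.0286 for IL-13 and IL-31. PBS libraries 1 to 3 held the lowest PBS values of every balance, so leaving them out could only lower the differences from PBS. All 9 balance differences were lower in that setting, where 5 against 2 libraries allow no p below 0.0476. Cdsn to Dsp was then 0.13, 0.28 and 0.13, Dsg1a plus Dsg1b to Dsg3 was 0.19, 0.26 and 0.54, and Dsc1 to Dsc3 was -0.42, 0.02 and -0.05 for the IL-4, IL-13 and IL-31 comparisons (exact permutation test, adjusted p 0.857 to 0.905).

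**Figure D5:**
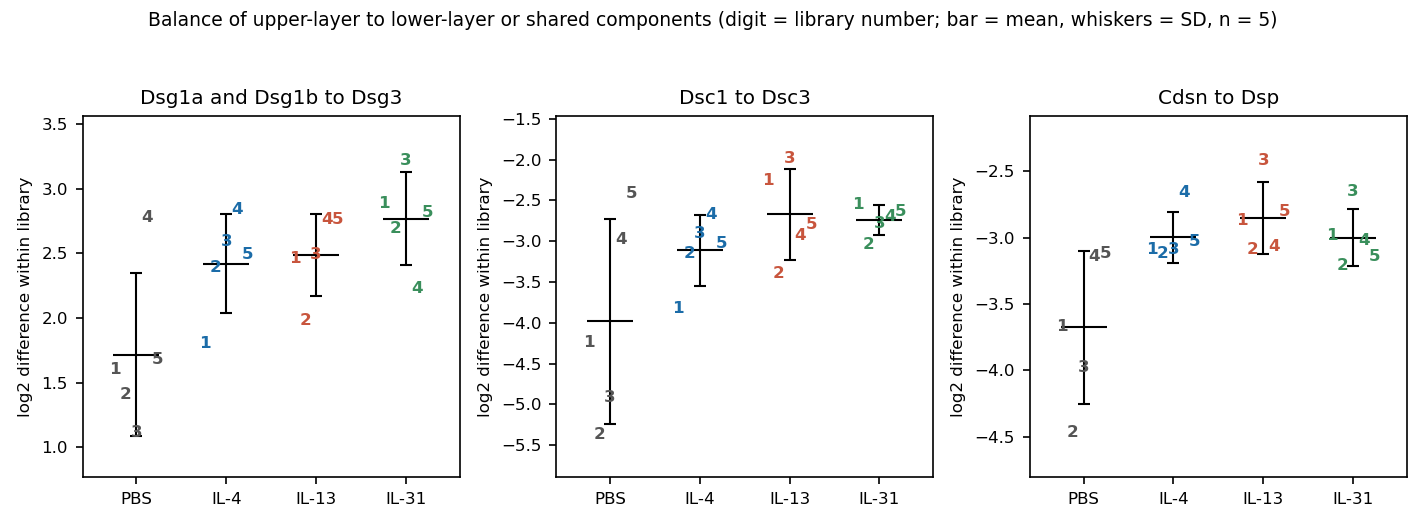
The 3 balances as log2 differences within a library (y axis) in the PBS, IL-4, IL-13 and IL-31 groups (x axis). Digits are library numbers, bars are means and whiskers SD (n = 5). PBS libraries 1, 2 and 3 are low in all panels, and PBS library 5 is low only in the Dsg1a and Dsg1b to Dsg3 panel.

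None of the 9 genes passed between 2 cytokines. In the comparisons of IL-4 with IL-13, IL-4 with IL-31 and IL-13 with IL-31, limma called 0 of the 9 genes and 0 of all genes (0.0%), and 0 of the 9 had an unadjusted p under 0.05. Over all genes, 664, 1743 and 1200 had one. The largest differences among the 9 were 0.64 ± 0.39 for Dsc2 between IL-13 and IL-31 (log2, SE; limma, adjusted p = 0.868) and -0.61 ± 0.62 for Dsc1 between IL-4 and IL-13 (adjusted p = 0.997). The 95% confidence intervals show what these data leave possible: for Dsc1 they ran from -1.91 to 0.69 for IL-4 minus IL-13, and for Dsg2 from -0.17 to 0.20.

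The other parts of the junction were read from a list of 9 plaque partners. Of these, 5 rose after IL-4, 6 after IL-13 and 4 after IL-31, and none fell, where 8.22, 9.94 and 5.18% of all genes rose. Their median log2 change was 0.62, 0.73 and 0.60. Jup (plakoglobin, which binds the cadherin tails) rose by 0.81, 1.13 and 0.99 on the log2 scale, Pkp1 (plakophilin 1 of the upper layers) by 0.81, 1.03 and 0.97, Perp (a membrane protein of desmosomes) by 0.85, 0.97 and 0.91, and Ppl (periplakin, a linker of the cornified envelope) by 0.62, 0.72 and 0.71 (limma, adjusted p at most 0.0333 in each). Pkp2, the plakophilin of simple epithelia and heart, stood at -0.90, -0.57 and -0.89 and did not pass (limma, adjusted p = 0.0895, 0.278 and 0.139). Dsg1c, the third desmoglein 1 copy of the mouse, stood at 0.92, 1.52 and 0.58 and did not pass either (limma, adjusted p = 0.276, 0.0587 and 0.524). Once PBS libraries 1 to 3 were left out, limma called 0 of the 9 partners in each comparison (0, 2 and 0 at an unadjusted p under 0.05).

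Proteases that cut corneodesmosomes and their inhibitors formed a list of 16, of which 15 were tested and Klk14 was not analysed here. Rises were found for 5, 5 and 3 of the 15 in the IL-4, IL-13 and IL-31 comparisons, and no falls. For this list and the 2 that follow, the share of all genes that rose was 8.22, 9.94 and 5.18%. Klk5, the kallikrein that starts the protease cascade of the cornified layer, rose by 1.66 ± 0.54, 2.01 ± 0.54 and 1.97 ± 0.54 (log2, SE; limma, adjusted p = 0.0378, 0.0136 and 0.0352), and its differences without PBS libraries 1 to 3 were -0.05, 0.30 and 0.26. Cst6, a cystatin that inhibits cathepsins of the cornified layer, rose by 1.07, 1.14 and 1.12, and Prss8, a membrane-bound protease of the epidermal barrier, by 0.76, 0.91 and 0.79 (log2 changes; limma, adjusted p at most 0.0347). In the list of 9 adherens junction genes, the junctions that carry actin rather than keratin, 3, 5 and 2 rose, among them Cdh1 (E-cadherin) by 0.69, 0.75 and 0.69 (limma, adjusted p at most 0.0221). In the list of 9 hemidesmosome genes, which fix basal cells to the basement membrane, 3 rose after IL-4 (Lamb3 by 0.34, Dst by 0.47 and Col17a1 by 0.33). After IL-13 and after IL-31, limma called 0 of the 9. Without PBS libraries 1 to 3, Lamb3, Dst and Col17a1 stood at 0.26, 0.43 and 0.30 after IL-4 (limma, adjusted p = 0.101, 0.172 and 0.142). In either direction, 6, 1 and 3 of the 9 then had an unadjusted p under 0.05 in limma, against 4, 0 and 1 with all libraries. With PBS libraries 1 to 3 left out, limma called in these 3 lists only Afdn, a linker of nectins to actin, as higher after IL-4 and IL-13, and Cd151, a tetraspanin of hemidesmosomes, and Ctsc, a cathepsin, as lower after IL-4. These 3 genes were named after their values were seen. Whether these lists differ from one another in their response was not tested.

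Keratinocyte markers were read beside the junction genes. Of 12 suprabasal and cornified genes 7, 9 and 8 rose and none fell, with median log2 changes of 1.24, 1.51 and 1.44. Of all genes, 8.22, 9.94 and 5.18% rose, the share to set beside each count of rises below. Krt10, the keratin of the spinous layers, rose by 1.66, 2.00 and 2.05, and Lor, which encodes the main protein of the cornified envelope, by 2.08, 2.47 and 2.43 (log2 changes). Of 6 basal genes only Trp63, the p63 transcription factor of basal cells, rose (0.50, 0.36 and 0.41), and Krt5 and Krt14 did not pass in any comparison. In the fit without PBS libraries 1 to 3, limma called 0 of the 12 and 0 of the 6 genes in each comparison, with 0 of the 12 and at most 1 of the 6 at an unadjusted p under 0.05. Summed CPM was taken as % of the nominal library total. For the suprabasal list it was 0.775 to 4.69% in PBS and 3.18 to 5.71% after IL-4. After IL-13 it was 3.28 to 8.13% and after IL-31 4.70 to 7.48%. For the basal list it was 2.16 to 2.72% in PBS, 2.36 to 2.94%, 2.61 to 3.6% and 2.31 to 2.85%. Skeletal muscle genes fell in 15 of 15 after IL-4 and after IL-13 and in 0 of 15 after IL-31, where 2 had an unadjusted p under 0.05 in limma (summed level 0.765 to 2.29% in PBS, 0.0515 to 0.424%, 0.118 to 0.461% and 0.234 to 1.04%). Of 11 hair shaft and root sheath genes tested 3, 5 and 3 fell and 2, 2 and 0 rose. Their summed level was 0.00608 to 0.0452% in PBS and 0.00518 to 0.00821% over the cytokine groups. Of 9 macrophage genes 5, 4 and 0 fell, of 8 fibroblast genes 1, 1 and 0, and of 9 endothelial genes 2, 4 and 0, where 9.63, 9.8 and 1.2% of all genes fell (for IL-31, limma gave 0 in each list at an unadjusted p under 0.05 too). Of 9 sebaceous gland genes 1, 0 and 0 rose (3, 0 and 0 at an unadjusted p under 0.05) and of 8 neutrophil genes 1, 0 and 0 fell (2, 0 and 0). These counts depended on PBS libraries 1 to 3. With them left out, 14, 3 and 0 of the 15 muscle genes fell, 8, 4 and 0 macrophage, 7, 3 and 0 fibroblast and 2, 2 and 0 endothelial genes fell, 6, 0 and 0 sebaceous genes rose, and limma called 0 hair and 0 neutrophil genes in each comparison (3, 7 and 5, and 1, 0 and 0, at an unadjusted p under 0.05). At an unadjusted p under 0.05 in limma, in either direction, that fit gave 15, 15 and 0 muscle and 9, 9 and 5 macrophage genes. It gave 8, 7 and 4 fibroblast, 5, 6 and 1 endothelial and 6, 6 and 1 sebaceous genes. Over all 16461 genes it gave 4102, 3172 and 1227. The calls over all genes in that fit were 767, 299 and 0 lower and 433, 86 and 0 higher. The part of these cell types in the changes of the junction genes was not tested.

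The genes most like a member were found by the root mean square (RMS) difference of centred log2 CPM over the 20 libraries, among 14242 genes. For Cdsn (own RMS 1.02) these were Dmkn (dermokine, 0.12), Hal (histidine ammonia-lyase, 0.13) and Alox12b (a lipoxygenase of the epidermal barrier, 0.15). For Dsc1 (own RMS 1.32) they were Sdr9c7 (a dehydrogenase of barrier lipids, 0.26), Klk5 (0.32) and Hrnr (hornerin, 0.32). Dsg3 (own RMS 0.32) lay closest to Itga6 (the integrin alpha 6 of hemidesmosomes), Mboat1 and Ttc37, each at 0.15. Within the set, Dsg1a and Dsp differed by 0.14, Dsc3 and Dsp by 0.14, Dsg1a and Dsc3 by 0.18 and Dsg1b and Cdsn by 0.27, while Dsc1 and Dsc2 differed by 1.31. All of these distances share the same libraries and are given as descriptions.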

How the data were processed

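Total RNA of mouse ear pinnae was sequenced in 20 libraries, 5 in each of 4 groups (NEBNext Ultra II libraries, per the labels' protocols). The deposited values are log2 CPM for 16669 genes in a single table made by the authors, and the submitters' processing notes list GRCm38 and edgeR. The sources used here do not name the aligner, the counting or its use of strand. The lowest value, -2.68, equals the log2 of 0.1556 CPM, an offset that makes fold changes of low genes too small. Between 79.8 and 86.1% of low values were whole multiples of a read (within 0.02), so reads were not recovered and no count test was run. Intervals for counting error were not formed, and 3 reads set the floor given with the results. Gene symbols, coordinates and exon lengths came from GENCODE M21 (16644 identifiers matched).

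Genes with a log2 CPM of at least 0 in at least 5 libraries were kept (16461, with 208 removed). limma 3.58.1 (R 4.3.3) fitted 4 group means over all 20 libraries (eBayes with trend, two-sided, Benjamini-Hochberg over all genes kept, called at 0.05). The procedure was first run on simulated data that gave a gene the same spread in every group. Such data cannot show how the fit behaves where groups differ in spread, as they do for the members. Balances were compared by exact permutation tests. Named were the 10 members, of each list up to 4 genes of smallest p, and for Cdsn, Dsc1 and Dsg3 the 3 nearest genes in centred log2 CPM. Pkp2, Dsg1c and the marker genes given with values were chosen after their values were seen. The members and lists were chosen with earlier results of these data known. Alternatives were another filter, offset, scaling or weighting, only the 10 libraries compared, a replicate block and each library left out. Leaving out PBS libraries 1 to 3 was added after the data were seen.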

Additional observations from a re-analysis of the deposited data

Results flagged for a closer look

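In a group of 5 libraries, a library was singled out where its gap to the nearest other, divided by the range of the group, was over 0.71 (Dixon's test). Of 48 groups tested 8 met this, where chance gives about 1 in 20 for a group taken alone. The groups share libraries and hold genes of similar pattern, so they are not independent. Their count was not tested against chance. After PBS, Dsg3 in library 5 was 8.41 log2 CPM, with the others between 7.08 and 7.38. After IL-31, Dsg3 in library 4 was 8.18, with the others between 7.45 and 7.60, and Dsc1 in library 2 was 7.0, with the others between 7.43 and 7.57. IL-4 library 1 was low in Dsc3 (9.60 against 10.07 to 10.23) and in Dsp (11.14 against 11.67 to 11.87). IL-13 library 2 was low in Dsg1a (9.62 against 10.35 to 10.56) and in Dsp (11.23 against 11.87 to 12.11). The balance of Cdsn to Dsp was -2.66 in IL-4 library 4, with the others between -3.12 and -3.03.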

How the results depend on the processing

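Filters, the offset and both scalings left the counts of members called against PBS at 5 (IL-4), 7 (IL-13) and 6 (IL-31). When only the 10 libraries compared were fitted, 0 members passed in each comparison with PBS, and 1269, 1134 and 0 genes passed in all, with 3 for IL-4 against IL-31. That fit has fewer samples to estimate the spread, and it leaves out the groups not compared. The main fit used the same spread of a gene for all groups, so its errors for comparisons with PBS also rest on the tighter groups. The median SD of the members was 0.84 in PBS, 0.31 after IL-4, 0.38 after IL-13 and 0.17 after IL-31. Which of these differences between the fits removed the calls was not tested. Without PBS libraries 1 to 3, 0 members passed in each comparison with PBS, and 1200, 385 and 0 genes in all. Directions then turned for Dsg1b (-0.46), Dsg3 (-0.05), Dsc1 (-0.36), Dsp (-0.04) and the balance of Dsc1 to Dsc3 (-0.42) after IL-4, for Dsc2 (-0.18) after IL-13, and for Dsg1b (-0.06), Dsg3 (-0.21) and the balance of Dsc1 to Dsc3 (-0.05) after IL-31. The cause was not tested. With 2 PBS libraries against 5 the smallest permutation p is 0.0476. Array weights gave 7, 8 and 7 members, 1667 genes for IL-31 against PBS, 692 for IL-4 against IL-31 and 535 for IL-13 against IL-31. Dsc2 after IL-4 turned positive with quantile normalization (0.20), equal medians (0.06) and array weights (0.23).

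Leaving out 1 library gave 1 to 8 members for IL-4, 4 to 8 for IL-13 and 0 to 8 for IL-31, with 0 for IL-31 without PBS library 1, 2 or 3 or IL-31 library 3 or 5, and 8 in each comparison without PBS library 5. Genes called in all ranged over 1885 to 3553, 1995 to 4703 and 0 to 3029 against PBS, 0 to 304 for IL-4 against IL-31 and 0 to 297 for IL-13 against IL-31. Dsc2 ranged from -0.27 to 0.29 after IL-4 and from -0.16 to 0.45 after IL-13, turning with PBS library 3 or 5 or IL-4 library 5 out (0.09, 0.29 and 0.09) and with PBS library 2 or 4 or IL-13 library 1 or 3 out (-0.11, -0.02, -0.04 and -0.16). The balance of Dsg1a and Dsg1b to Dsg3 ranged over 0.56 to 0.97, 0.63 to 1.04 and 0.90 to 1.32 in the 3 comparisons, that of Dsc1 to Dsc3 over 0.52 to 1.26, 0.97 to 1.71 and 0.89 to 1.63, and that of Cdsn to Dsp over 0.48 to 0.82, 0.63 to 0.97 and 0.48 to 0.82. Among the fold changes of single members against PBS, 69 of 270 lost and 10 gained their call with 1 library out. Under the other settings 36 of 243 lost and 4 gained it. Both totals include fold changes that had no call to lose. The 36 losses were every call in the fits of only the 10 libraries compared and without PBS libraries 1 to 3.

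The replicate numbers showed no general pairing: 10 of 30 same-number pairs correlated above 0.1 in their deviations (r from -0.236 to 0.486). Of the 30, 5 correlated best with their own number. The highest r were for number 2, at 0.49 (IL-13 with PBS), 0.45 (IL-31 with PBS) and 0.40 (IL-13 with IL-31). For number 2 of IL-4, r was 0.08 with PBS, 0.03 with IL-13 and 0.05 with IL-31. Such correlations cannot exclude shared animals or batches. With the replicate number as a block, limma called 5, 7 and 6 members, 2952, 3252 and 1247 genes in all and 2 genes for IL-4 against IL-31. Exact sign-flip permutation tests of the paired balances cannot go below p = 0.0625. Among the 9 members depth limits Dsc2 most, the least abundant of them.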
